A study of Mus musculus with 5 samples.

Results

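The Slc25a genes encode the mitochondrial carrier family of liver, examined here in mice designed to lack Heg1 in Lyve1-expressing cells. Members were the rows whose symbol is Slc25a followed by a number and whose mean FPKM over the 5 livers was above 0. The symbol matched 47 of 33589 rows, and 45 of these had a mean above 0, while Slc25a41 and Slc25a54 were listed at 0 in every liver. FPKM are fragments adjusted for transcript length and for the number mapped in a library, so the levels of different genes can be compared within a liver. The 3 knockout livers (Lyve1-Cre;Hegfl/fl) carried floxed Heg1 together with Lyve1-Cre, a recombinase driven by the gene of a hyaluronan receptor of lymphatic and liver sinusoidal endothelium. The 2 control livers (Hegfl/fl) carried the same floxed Heg1 without the Cre. All 5 came from male mice, given as 6 weeks old, that had 4 weeks of a high-fat diet (HFD). The design asks how liver RNA on this diet differs when Heg1, an endothelial receptor, is deleted in Lyve1-expressing cells. The labels name liver as the tissue although the series title speaks of hepatocytes, and they do not say which part of Heg1 was floxed.

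Mitochondrial carriers are small proteins of the inner mitochondrial membrane, built from repeated pairs of membrane helices, that exchange one metabolite for another between matrix and cytosol. In liver they link the matrix steps of respiration, urea synthesis, fatty acid oxidation and gluconeogenesis to the cytosol. Most are hepatocyte transcripts in this organ, so in RNA of whole liver a difference in the number of cells of a type and a difference in RNA per cell cannot be told apart.

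Liver identity was clear in all 5 libraries, with albumin (Alb) between 37676 and 51017 FPKM. Adipocyte (Adipoq, Lep, Plin1) and skeletal muscle (Acta1, Myh4, Ckm, Mb) markers were listed at 0 in every liver. Heg1 itself had 0.45, 0.43 and 0.50 FPKM in knockouts and 0.48 and 0.35 FPKM in controls, so a whole-gene value in whole liver could not serve as a check of the labels. Library sums were between 797692 and 820498 FPKM, and between 10614 and 10945 rows had at least 1 FPKM. Knockout 1 stood apart in red cell transcripts. The 6 erythroid markers with a row summed to 1329, 244 and 141 FPKM in knockouts 1, 2 and 3, against 136 and 146 FPKM in controls.

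Summed over the 45 members it made up 2157, 2145 and 2077 FPKM in the knockouts, against 2198 and 2158 FPKM in the controls. The means were 2126 ± 43.3 FPKM in knockouts and 2178 ± 28.3 FPKM in controls (SD, n = 3 knockouts and n = 2 controls, as for all SDs below). Every knockout sum lay below both controls, by a small margin for knockout 1 against control 2. Slc25a47 alone had a mean of 314 ± 20.3 FPKM in knockouts, against 411 ± 91.6 FPKM in controls. That gap was wider than the one between the family means, so the other members together were not lower in mean in knockouts. The difference in carrier family summed FPKM, knockout minus control, was -51.5, and it was -170.4 with median-of-ratios scaling and -26.8 without knockout 3. Between 0.257% and 0.269% of all FPKM belonged to the family in knockouts, against 0.265% and 0.270% in controls. Levels of single members spanned a wide range. A group of 4 carriers, Slc25a47, Slc25a5, Slc25a39 and Slc25a3, held between 49.2% and 53.5% of the family's FPKM in knockouts, against 58.9% and 52.6% in controls. At the other end, 6 members lay below a mean of 1 FPKM and were not tested.

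Each of the other 39 members was tested with limma on log2(FPKM + 1) over the 10820 rows with a mean of at least 1 FPKM, with Benjamini-Hochberg adjustment over all of these rows. A carrier counted as called at an adjusted p below 0.05. None was called in either direction, as was none of all rows (0%), and the smallest adjusted p of a carrier was 0.70. At an unadjusted p below 0.05 there was no carrier that was higher in knockouts, against 5.29% of all rows, and 1 that was lower, Slc25a47, which is 2.56% of the carriers, against 1.71% of all rows. Knockout and control values were fully separate for 7 carriers (17.9%), against 25.3% of all rows. Of these, 5 carriers (12.8%) were higher in all 3 knockouts, namely Slc25a1, Slc25a4, Slc25a13, Slc25a44 and Slc25a46, against 18.9% of all rows. The 2 that were lower (5.13%), against 6.38% of all rows, were Slc25a47 and Slc25a48. Scaling by median of ratios made these counts 3 higher and 4 lower, and the share of all rows under that scaling is not given. Of the 5 cholangiocyte markers 3 were tested and 0 passed. The 5 summed to 72.4, 51.2 and 55.3 FPKM in knockouts, against 29.7 and 40.6 FPKM in controls. Nearly all of this sum was Spp1, with 66.4, 47.8 and 50.4 FPKM in knockouts, against 25.95 and 38.4 FPKM in controls. The log2 fold change of Spp1 was 0.76 (SE 0.21, unadjusted p = 0.0091, limma adjusted p = 0.70). Which cells its RNA came from was not tested. The groups of Epcam and of the keratins Krt19 and Krt7 overlapped. Sox9, which was not tested, was higher in all knockouts, with 1.5, 1.1 and 0.79 FPKM, against 0.64 and 0.73 FPKM in controls. No marker was at 0 throughout, and the part of these markers in the carrier values was not tested. The median log2 fold change of the carriers, knockout minus control, was 0.044, against 0.061 for all rows, and it turned to -0.0012 with quantile normalization and -0.020 with median-of-ratios scaling. A log2 fold change above 0 was found for 25 carriers (64.1%), against 64.2% of all rows. With quantile normalization this count was 19 (48.7%), against 49.4% of all rows, and with median-of-ratios scaling 15 (38.5%), against 48.5%. For 26 of the 39 carriers (66.7%) the 2 controls lay further apart than the group means, as they did for 58.1% of all rows. Single livers tend to lie further apart than means do, so this count does not weigh genotype against the spread of livers. The highest liver was less than 1.5 times the lowest for 22 carriers, and more than 2 times the lowest for 8.

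**Figure D1:**
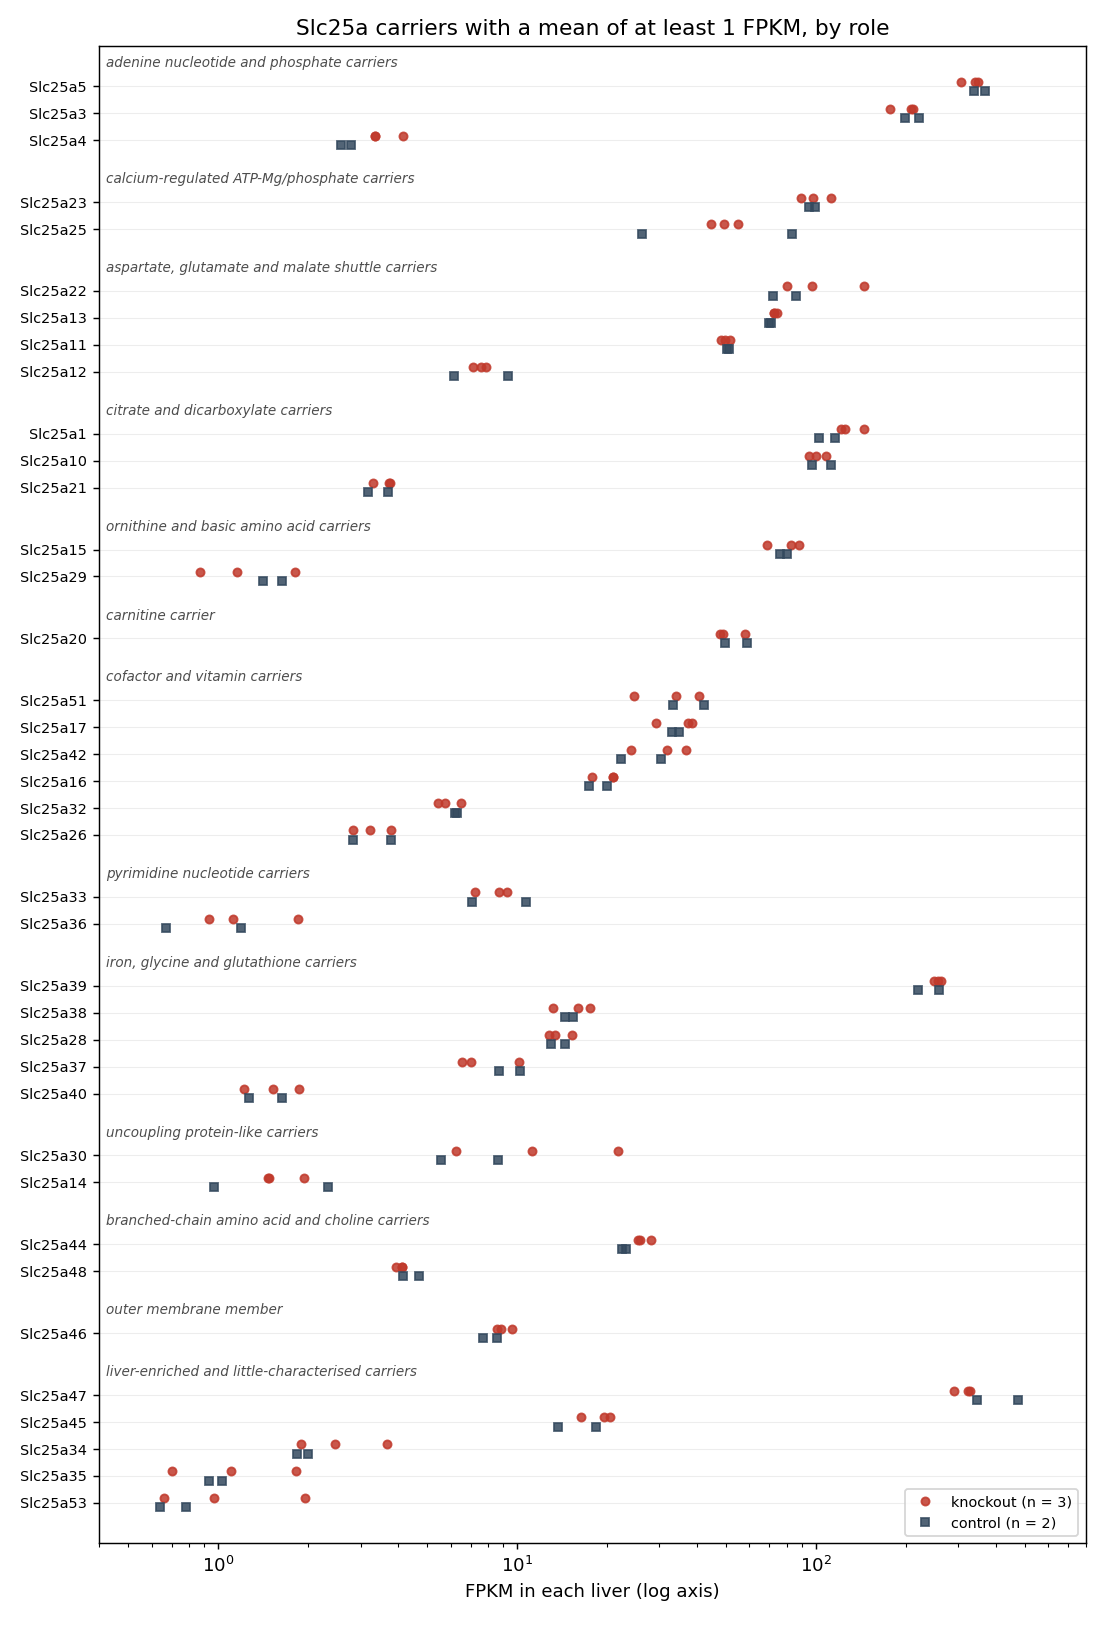
FPKM of 38 carriers with a mean of at least 1 FPKM, on a log axis, in each of 3 knockout livers (circles) and 2 control livers (squares), grouped by what the carriers transport. The circles and squares of most carriers overlap, and levels span from under 1 FPKM to 475 FPKM.

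**Figure D2:**
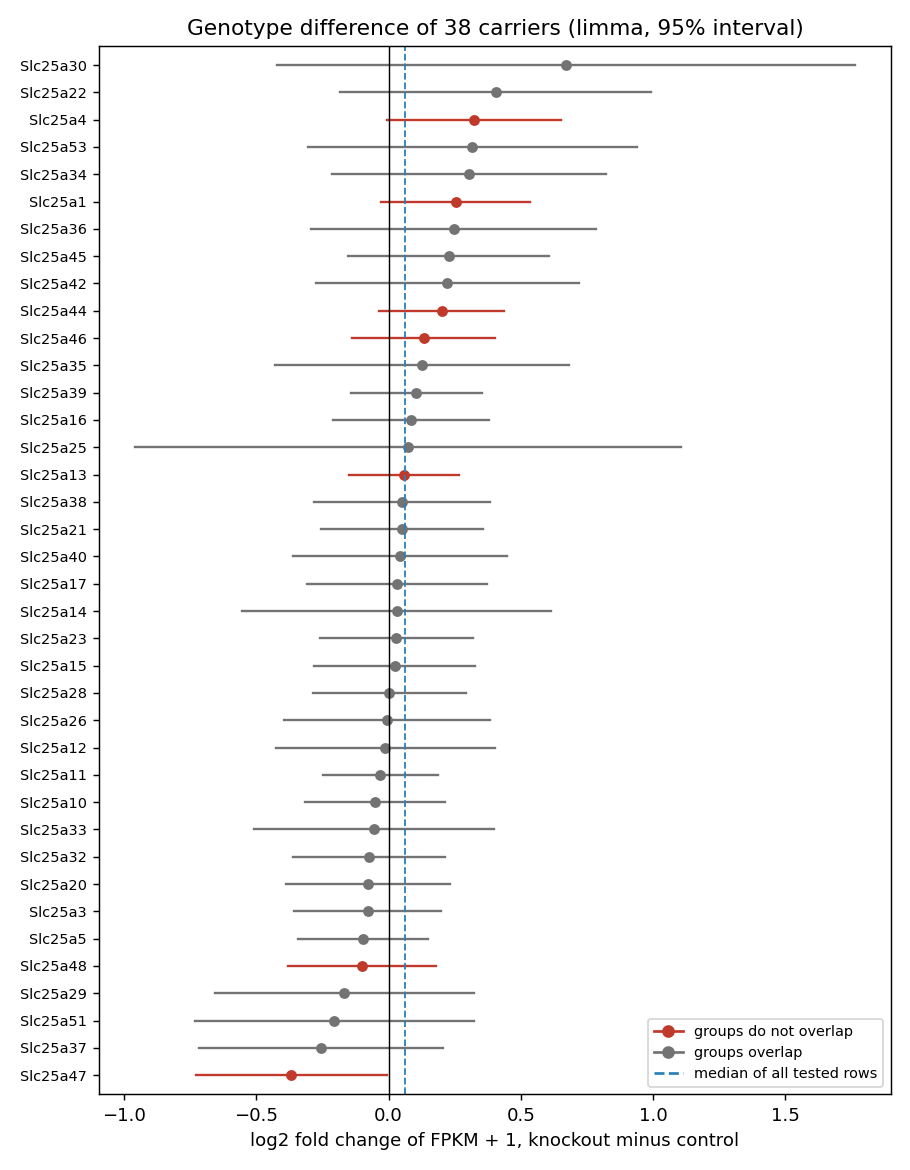
Log2 fold changes of FPKM + 1, knockout minus control, of 38 tested carriers with limma's 95% intervals; red marks the 7 carriers whose groups do not overlap, and the dashed line is the median of all 10820 tested rows (0.061). The interval of Slc25a47 alone leaves out 0, and its adjusted p was 0.70.

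Slc25a47, a carrier made almost solely by hepatocytes, had the highest mean level of the family. It stood at 329, 323 and 291 FPKM in knockouts, against 475 and 346 FPKM in controls. Every knockout thus lay below both controls, and control 1 was far above the other 4 livers. Its log2 fold change was -0.37 (SE 0.15, limma 95% confidence interval -0.73 to -0.0071). Its unadjusted p was 0.0468 and its limma adjusted p 0.70. The difference was -0.14 without control 1 and -0.60 without control 2, so control 1 set most of its size. As a share of the family's FPKM, Slc25a47 held 15.2%, 15.1% and 14.02% in knockouts, against 21.6% and 16.0% in controls. The gene (ENSMUSG00000048856.9) lies on chromosome 12, 108836046 to 108856815 on the plus strand of GRCm38. In GENCODE M21 this record starts 163 bases from that of Slc25a29, which is read from the other strand. The RefSeq start used for the promoter below lies further inside this record, so the window shown is not the stretch next to Slc25a29. Slc25a29, a carrier of basic amino acids, had only 1.81, 1.16 and 0.87 FPKM in knockouts, against 1.41 and 1.64 FPKM in controls.

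The promoters of 4 carriers described here are shown because these carriers have the highest level (Slc25a47), form the ATP/ADP pair (Slc25a5 and Slc25a4) or carry citrate (Slc25a1). Each runs from 250 bases before to 50 bases after the most upstream RefSeq start (GRCm38.p6), 5′ to 3′ on the gene's strand. They come from chr12:108850879-108851178 (plus strand), chrX:36795347-36795646 (plus), chr8:46211013-46211312 (minus) and chr16:17928170-17928469 (minus). Capitals mark CCAAT boxes (CCAAT), GC boxes (GGGCGG) and E-boxes (CACGTG) on either strand.
Slc25a47: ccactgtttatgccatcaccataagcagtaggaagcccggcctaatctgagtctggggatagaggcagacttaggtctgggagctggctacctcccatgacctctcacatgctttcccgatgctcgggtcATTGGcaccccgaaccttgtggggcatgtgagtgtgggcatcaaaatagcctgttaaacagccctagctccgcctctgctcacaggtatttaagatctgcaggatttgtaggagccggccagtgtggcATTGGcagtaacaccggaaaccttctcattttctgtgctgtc
Slc25a5: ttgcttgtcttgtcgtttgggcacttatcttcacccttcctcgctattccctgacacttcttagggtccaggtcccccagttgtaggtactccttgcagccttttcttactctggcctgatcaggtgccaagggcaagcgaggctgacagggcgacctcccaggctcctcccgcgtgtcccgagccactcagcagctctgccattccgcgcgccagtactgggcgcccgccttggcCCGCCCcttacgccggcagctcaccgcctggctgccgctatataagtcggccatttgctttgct
Slc25a4: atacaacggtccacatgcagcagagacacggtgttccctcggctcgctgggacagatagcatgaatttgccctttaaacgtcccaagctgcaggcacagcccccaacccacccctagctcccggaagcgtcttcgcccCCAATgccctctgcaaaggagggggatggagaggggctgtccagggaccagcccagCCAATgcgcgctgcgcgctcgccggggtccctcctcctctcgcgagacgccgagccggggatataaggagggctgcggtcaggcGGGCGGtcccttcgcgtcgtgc
Slc25a1: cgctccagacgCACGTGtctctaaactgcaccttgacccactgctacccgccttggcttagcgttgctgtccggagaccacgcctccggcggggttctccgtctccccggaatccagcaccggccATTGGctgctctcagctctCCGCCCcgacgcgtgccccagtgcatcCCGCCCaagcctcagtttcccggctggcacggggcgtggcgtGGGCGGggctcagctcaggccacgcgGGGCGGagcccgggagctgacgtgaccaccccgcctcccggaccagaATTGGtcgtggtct

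Across the family 35 members had a promoter in the RefSeq table. A GC box was present in 30 of these 35, against 35.9% of all 27025 promoters, which include those of non-coding genes. Slc25a47 was among the 5 without one, and its window held 2 CCAAT boxes and 53.3% G or C, against a median of 60.0% in the family and 52.7% in all promoters. CCAAT boxes occurred in 17 of 35 members, against 38.0% of all promoters, and E-boxes in 6, among them Slc25a1 and Slc25a13, against 7.24%. The exact letters TATAAA were found in Slc25a18 alone (14.2% of all), and other forms of a TATA box were not searched. TGACGTCA, the cyclic AMP response element, was in Slc25a36 alone (1.85%), and CCGGAAGT, an ETS site, in Slc25a20 alone (3.99%). TCAAGGTCA, the letters of an estrogen-related receptor site, were in no window of the 35 and in 0.407% of all promoters. All motifs were searched on both strands.

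The carriers that move ATP, ADP and phosphate supply the substrates of ATP synthase and export its product. Slc25a5, the adenine nucleotide translocase of most tissues, had 350, 306 and 341 FPKM in knockouts, against 340 and 370 FPKM in controls. Its log2 fold change was -0.095 (SE 0.10, limma adjusted p = 0.84). Slc25a3, the phosphate carrier, stood at 212, 178 and 209 FPKM in knockouts and at 221 and 200 FPKM in controls, a log2 fold change of -0.078 (SE 0.12). In both genes knockout 2 was the lowest liver, and the groups overlapped. Slc25a4, the translocase isoform of heart and skeletal muscle, was low in liver, with 3.35, 4.15 and 3.34 FPKM in knockouts, against 2.58 and 2.78 FPKM in controls. All 3 knockouts lay above both controls, and the log2 fold change was 0.32 (SE 0.14, confidence interval -0.0065 to 0.65, unadjusted p = 0.0535, limma adjusted p = 0.71). The testis isoform Slc25a31 had at most 0.11 FPKM in any liver. Slc25a4, Slc25a5 and a pseudogene of Slc25a5 resemble each other in sequence, so reads could have been shared between them, and the low level of Slc25a4 is the more uncertain for it.

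Carriers that exchange ATP-Mg for phosphate under the control of cytosolic calcium set the size of the matrix nucleotide pool. Slc25a23 had 97.95, 113 and 89.4 FPKM in knockouts, against 95.3 and 99.8 FPKM in controls (log2 fold change 0.030, SE 0.12, and -0.049 with median-of-ratios scaling). Slc25a25 showed the widest gap between the controls of any tested carrier, 1.63 in log2(FPKM + 1). It had 44.7, 54.8 and 49.2 FPKM in knockouts, against 26.2 and 83.2 FPKM in controls. The 3 knockouts therefore all fell between the 2 controls. Its log2 fold change was 0.075 (SE 0.43, limma adjusted p = 0.98). It was -0.0023 with median-of-ratios scaling, -0.74 without control 1 and 0.89 without control 2. Slc25a24 stayed below 1 FPKM, between 0.35 and 0.53.

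Malate, aspartate and glutamate cross the inner membrane in the shuttle that brings reducing equivalents of cytosolic NADH into the matrix. Slc25a13, the liver form of the aspartate-glutamate carrier (citrin), varied little between livers. It had 72.8, 74.4 and 72.7 FPKM in knockouts, against 69.8 and 70.9 FPKM in controls. The knockouts were all higher, by a log2 fold change of 0.058 (SE 0.086, limma adjusted p = 0.88), which turned to -0.020 with median-of-ratios scaling. Slc25a12, the form of brain and muscle, had 7.53 ± 0.39 FPKM in knockouts and 7.74 ± 2.25 FPKM in controls. The oxoglutarate-malate carrier Slc25a11 lay between 48.1 and 51.6 FPKM in all 5 livers. Slc25a22, a glutamate carrier, varied most in this group, with 97.5, 145 and 79.9 FPKM in knockouts, against 71.8 and 85.9 FPKM in controls. Knockout 2 was the highest liver and knockout 3 lay below control 2. Its log2 fold change of 0.40 (SE 0.25, confidence interval -0.19 to 0.99, limma adjusted p = 0.75) was 0.17 without knockout 2. The second glutamate carrier, Slc25a18, did not exceed 0.06 FPKM.

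Citrate leaves the matrix through Slc25a1 and is the carbon source of cytosolic fatty acid and sterol synthesis. Slc25a1 had 125, 122 and 146 FPKM in knockouts, against 103 and 116.04 FPKM in controls. Every knockout was above both controls, with a mean of 131 ± 12.9 FPKM in knockouts and 109 ± 9.33 FPKM in controls. Its log2 fold change was 0.25 (SE 0.12, confidence interval -0.028 to 0.54, unadjusted p = 0.0705, limma adjusted p = 0.72), and it lay between 0.17 and 0.34 when any single liver was left out. Acly, which cleaves the exported citrate, had 64.2, 49.2 and 89.5 FPKM in knockouts, against 48.3 and 78.4 FPKM in controls, and was looked up after the values of Slc25a1 were seen. Slc25a10, the dicarboxylate carrier, had 94.9, 108 and 100.1 FPKM in knockouts, against 97.3 and 112 FPKM in controls, and its groups overlapped (log2 fold change -0.052, SE 0.11). Slc25a21, which carries oxoadipate, had 3.59 ± 0.26 FPKM in knockouts and 3.44 ± 0.36 FPKM in controls.

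Ornithine must enter the matrix in every turn of the urea cycle, and citrulline must leave it. Slc25a15, the ornithine carrier, had 87.6, 82.7 and 68.7 FPKM in knockouts, against 76.1 and 80.0 FPKM in controls (log2 fold change 0.023, SE 0.13, and -0.055 with median-of-ratios scaling). A second ornithine carrier, Slc25a2, did not exceed 0.17 FPKM. The carnitine-acylcarnitine carrier Slc25a20, which admits long-chain acyl groups to matrix oxidation, had 48.8, 57.8 and 47.9 FPKM in knockouts, against 49.8 and 58.9 FPKM in controls. Its log2 fold change was -0.077 (SE 0.13), with groups that overlapped. Cpt1a, which makes the acylcarnitine on the outer membrane, had 112, 140 and 127 FPKM in knockouts, against 105 and 93.9 FPKM in controls. That is a log2 fold change of 0.34 (SE 0.12, unadjusted p = 0.0306, limma adjusted p = 0.70).

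**Figure D3:**
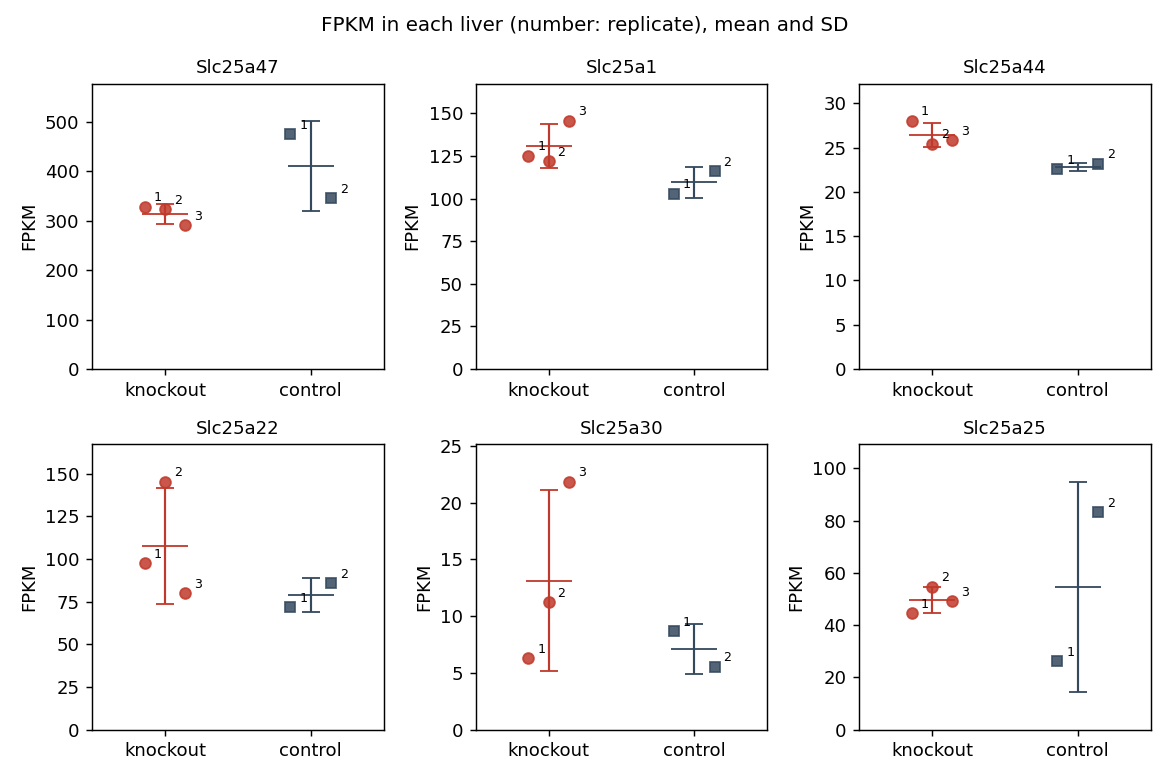
FPKM in each liver, numbered by replicate, for 6 carriers, with the mean (wide bar) and SD of 3 knockouts and 2 controls. Groups do not overlap for Slc25a47, Slc25a1 and Slc25a44, knockout 2 is highest for Slc25a22 and knockout 3 for Slc25a30, and the 2 controls of Slc25a25 enclose the 3 knockouts.

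Cofactors made in the cytosol need carriers of their own. Slc25a51, the NAD carrier, had 33.95, 40.8 and 24.6 FPKM in knockouts, against 33.3 and 42.3 FPKM in controls. Knockout 3 was the lowest liver, and the log2 fold change was -0.21 (SE 0.22, limma adjusted p = 0.84), or -0.012 without knockout 3, -0.37 without control 1 and -0.038 without control 2. Coenzyme A is carried by Slc25a42 and, by its yeast relative, Slc25a16. Slc25a42 had 31.0 ± 6.40 FPKM in knockouts and 26.3 ± 5.59 FPKM in controls. Slc25a16 had 19.9 ± 1.80 FPKM in knockouts and 18.7 ± 1.87 FPKM in controls. Slc25a17 sits in peroxisomes and not in mitochondria. It had 35.0 ± 5.13 FPKM in knockouts and 34.0 ± 1.34 FPKM in controls. Lower levels were seen for carriers of folate and of methyl donors. The folate and flavin carrier Slc25a32 had 5.90 ± 0.55 FPKM in knockouts and 6.25 ± 0.050 FPKM in controls. The S-adenosylmethionine carrier Slc25a26 had 3.28 ± 0.48 FPKM in knockouts and 3.31 ± 0.67 FPKM in controls. The groups overlapped for each of these 6 carriers.

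Iron, glycine and glutathione serve heme and iron-sulfur synthesis in the matrix. Slc25a39, a glutathione carrier, was the third most abundant member, with 264, 249 and 257 FPKM in knockouts, against 258 and 220 FPKM in controls (log2 fold change 0.11, SE 0.10, and 0.22 without control 1 or -0.0090 without control 2). Its relative Slc25a40 had 1.86, 1.53 and 1.22 FPKM in knockouts, against 1.27 and 1.64 FPKM in controls. Slc25a37 (mitoferrin-1), the iron carrier of red cell precursors, had 7.0, 6.53 and 10.1 FPKM in knockouts, against 8.70 and 10.3 FPKM in controls. Knockouts 1 and 2 were the 2 lowest livers, and the log2 fold change was -0.26 (SE 0.19, limma adjusted p = 0.78), which was -0.43 without knockout 3, -0.15 without knockout 2 and -0.15 without control 2. Slc25a37 was thus not high in knockout 1, the liver with the most hemoglobin RNA. Slc25a28 (mitoferrin-2), the iron carrier of other cells, had 13.8 ± 1.303 FPKM in knockouts and 13.8 ± 1.04 FPKM in controls. Slc25a38, the glycine carrier needed for heme in red cell precursors, had 16.0, 13.3 and 17.5 FPKM in knockouts, against 15.5 and 14.4 FPKM in controls.

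The uncoupling protein-like carrier Slc25a30 had the largest positive log2 fold change of the family and also the largest spread. It stood at 6.27, 11.2 and 21.9 FPKM in knockouts, against 8.66 and 5.56 FPKM in controls. Knockouts 2 and 3 lay above both controls and knockout 1 between them. The log2 fold change was 0.67 (SE 0.45, confidence interval -0.42 to 1.76, limma adjusted p = 0.78), and it was 0.24 without knockout 3, 0.39 without control 2 and 1.07 without knockout 1. Slc25a14, a related carrier, had 1.63 ± 0.27 FPKM in knockouts and 1.66 ± 0.97 FPKM in controls, and the brain form Slc25a27 stayed below 1 FPKM.

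Slc25a44, which brings branched-chain amino acids into mitochondria, had 28.0, 25.5 and 25.9 FPKM in knockouts, against 22.5 and 23.2 FPKM in controls. The groups did not overlap, and the log2 fold change of 0.20 (SE 0.098, confidence interval -0.035 to 0.44, unadjusted p = 0.0826, limma adjusted p = 0.72) lay between 0.13 and 0.23 under all 15 alternatives. Slc25a48, a choline carrier, had 4.11, 4.12 and 3.94 FPKM in knockouts, against 4.17 and 4.69 FPKM in controls. All knockouts were lower, though knockout 2 and control 1 differed by little (log2 fold change -0.10, SE 0.12). It was -0.17 without control 1, -0.032 without control 2 and -0.20 with quantile normalization. Slc25a46, an outer membrane protein of mitochondrial shape, had 8.84, 9.60 and 8.56 FPKM in knockouts, against 7.69 and 8.55 FPKM in controls, so knockout 3 and control 2 were all but equal. For Slc25a46 the log2 fold change was 0.13 (SE 0.11), or 0.065 without control 1 and 0.20 without control 2. Pyrimidine nucleotides are carried by Slc25a33 and Slc25a36. Slc25a33 had 8.42 ± 1.06 FPKM in knockouts and 8.91 ± 2.55 FPKM in controls, and Slc25a36 had 1.3 ± 0.49 FPKM in knockouts and 0.93 ± 0.37 FPKM in controls.

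Little-characterised members were mostly low. Slc25a45 had 18.8 ± 2.12 FPKM in knockouts and 16.0 ± 3.27 FPKM in controls. Slc25a34 had 2.47, 3.67 and 1.89 FPKM in knockouts, against 1.84 and 2.0 FPKM in controls (log2 fold change 0.30, SE 0.22). Slc25a53 had 1.95, 0.97 and 0.66 FPKM in knockouts, against 0.64 and 0.78 FPKM in controls, a log2 fold change of 0.32 (SE 0.26) that was 0.082 without knockout 1. Knockout 1 thus set the difference in Slc25a53, and knockout 2 that in Slc25a34, whose log2 fold change was 0.12 without it. Slc25a35 had 1.21 ± 0.57 FPKM in knockouts and 0.98 ± 0.071 FPKM in controls, and Slc25a43 did not exceed 0.11 FPKM.

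Several substrates are served by a pair of related carriers. The balance within 7 such pairs was taken as the log2 ratio of FPKM + 1 inside each liver, which does not depend on library size apart from the added 1. Slc25a4 over Slc25a5 was -6.33, -5.90 and -6.30 in knockouts, against -6.57 and -6.62 in controls. All 3 knockouts were higher, by 0.42 on average, and the difference was 0.27 with quantile normalization (exact permutation p = 0.3) and 0.28 without knockout 2. The exact two-sided permutation p was 0.1, the smallest that the 10 splits of 5 livers allow, and 0.7 after Benjamini-Hochberg adjustment over the 7 pairs. For the other 6 pairs the groups overlapped and exact permutation p lay between 0.5 and 1. The difference was 0.062 for Slc25a39 over Slc25a40, -0.070 for Slc25a12 over Slc25a13 and -0.045 for Slc25a23 over Slc25a25. It was -0.30 for Slc25a33 over Slc25a36, -0.26 for Slc25a37 over Slc25a28 and -0.14 for Slc25a16 over Slc25a42. Leaving out 1 control turned the sign for the first 4 of these 6 and for Slc25a16 over Slc25a42, and Slc25a37 over Slc25a28 was -0.080 without control 2.

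**Figure D4:**
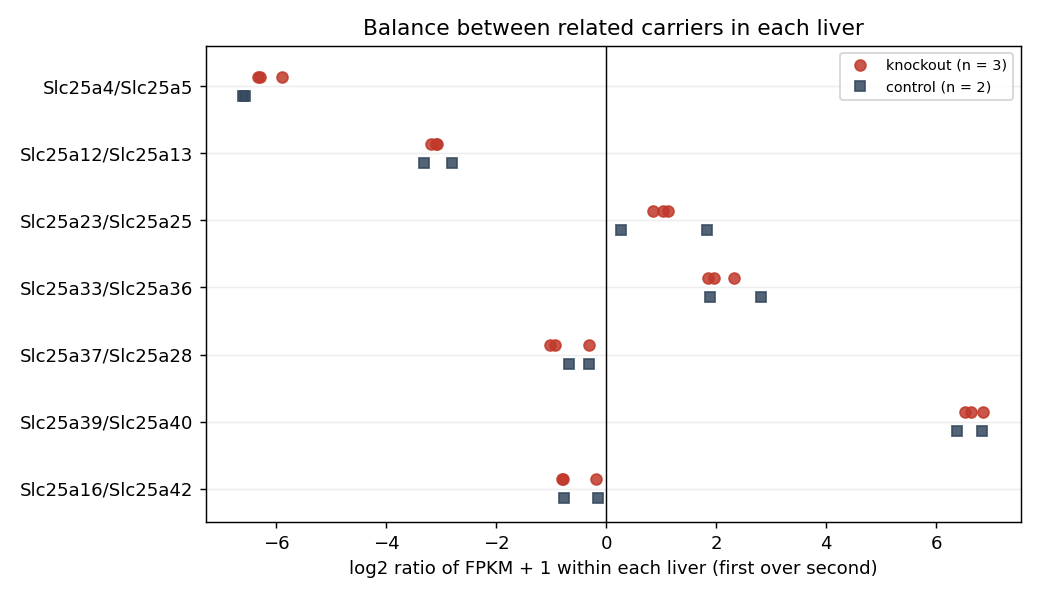
Log2 ratio of FPKM + 1 of the first over the second carrier of 7 related pairs, in each of 3 knockout livers (circles) and 2 control livers (squares). Slc25a4 over Slc25a5 is the single pair whose groups do not overlap, and Slc25a39 exceeds Slc25a40 in every liver by over 6 on the log2 scale.

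Carriers of the same family under other symbols were examined beside the Slc25a genes. Ucp2, a carrier that exports C4 metabolites, had 18.2, 24.9 and 16.9 FPKM in knockouts, against 11.6 and 15.4 FPKM in controls. All knockouts were higher, with a log2 fold change of 0.53 (SE 0.20, unadjusted p = 0.0339, limma adjusted p = 0.70). It was 0.34 without control 1. Ucp2 is also a transcript of liver macrophages. The 5 Kupffer cell markers summed to 122, 144 and 146 FPKM in knockouts, against 89.6 and 139 FPKM in controls, and their part in the Ucp2 values was not tested. Ucp1, the uncoupling protein of brown fat, was listed at 0 in every liver. Mtch1 and Mtch2 are outer membrane relatives of the carriers. Mtch1 had a log2 fold change of -0.027 (SE 0.12), and Mtch2 one of 0.030 (SE 0.087), which turned to -0.049 with median-of-ratios scaling.

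Carriers reach the inner membrane through the TIM22 translocase and its small chaperones. Of 9 such genes 0 passed the test over all rows, 3 were above 0 and 6 below, with a median log2 fold change of -0.077. Of all rows 64.2% were above 0 (median 0.061), or 48.5% with median-of-ratios scaling. The split of this list under that scaling is not given, so it is not read as a result about the list. Timm22, the channel subunit, had 8.89, 6.01 and 5.49 FPKM in knockouts, against 9.53 and 8.75 FPKM in controls (log2 fold change -0.40, SE 0.20, limma adjusted p = 0.72). Knockouts 2 and 3 were the 2 lowest livers. Among 12 other transporters of mitochondria 0 passed and the median was -0.015. The mitochondrial pyruvate carrier subunit Mpc2 had 130, 133 and 122 FPKM in knockouts, against 148 and 135 FPKM in controls, a log2 fold change of -0.14 (SE 0.095) that was -0.071 without control 1. The other subunit, Mpc1, had 160, 162 and 189 FPKM in knockouts, against 178 and 222 FPKM in controls, a log2 fold change of -0.22 (SE 0.13) that was -0.38 without control 1 and -0.065 without control 2.

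Enzymes on either side of the carriers were likewise not called in any list. Their splits by sign stand beside 64.2% of all rows above 0 (median 0.061), or 48.5% with median-of-ratios scaling. Splits of the lists under that scaling are not given, so they are not read as a result about any list. Of 9 shuttle enzymes 3 were above 0 and 6 below (median -0.074), of 6 urea cycle enzymes 2 and 4 (median -0.034), and of 4 carnitine shuttle enzymes 3 and 1 (median 0.13). Cps1, which makes carbamoyl phosphate, had a log2 fold change of 0.21 (SE 0.090, limma adjusted p = 0.71), and Ass1, which makes argininosuccinate, of -0.12 (SE 0.092), which was -0.18 without control 1 and -0.059 without control 2. Among 11 genes of mitochondrial iron use and of heme and glutathione metabolism 3 were above 0 and 8 below (median -0.037). Cpox, of heme synthesis, had 55.5, 58.0 and 51.2 FPKM in knockouts, against 46.0 and 44.2 FPKM in controls. Gss, the glutathione synthetase, had 32.7, 34.9 and 37.1 FPKM in knockouts, against 39.6 and 43.9 FPKM in controls. Their groups did not overlap, with log2 fold changes of 0.28 (SE 0.099) and -0.25 (SE 0.11) and a limma adjusted p of 0.70 for both. The third gene of this list without overlap was Iscu, with a log2 fold change of -0.22 (SE 0.096, limma adjusted p = 0.71). Groups were thus separate for 3 of these 11 genes, as they were for 25.3% of all rows. Of 7 tested one-carbon and cofactor genes 5 were above 0 and 2 below (median 0.065).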

How the data were processed

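RNA of 3 knockout and 2 control livers had been sequenced as paired ends, per the labels' protocols. The authors deposited FPKM per gene symbol, rounded to 2 decimals; HISAT2, StringTie and DESeq2 with mm10 are named in the submitters' processing notes, without roles or versions, and no source says whether strand was used. The 2 deposited tables of 33589 rows were identical. FPKM carry no depth: at best between 34.7% and 42.3% of low values of single-exon genes lay within 0.1 of a whole number of reads, so reads were not recovered.

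Here limma 3.58.1 (R 4.3.3; trended prior variance; genotype as the only term; two-sided) was run on log2(FPKM + 1) of the 10820 rows with a mean of at least 1 FPKM, with Benjamini-Hochberg adjustment and a threshold of 0.05. Fold changes on this scale understate those of low genes. Heg1 was not tested at this filter. At a filter of 0.1 FPKM its log2 fold change was 0.046 (SE 0.11, limma adjusted p = 0.93). The test was tried on simulated data. Values in every liver are given for the 10 most abundant carriers, the 6 largest fold changes in each direction and any with an unadjusted p below 0.05, for others where a role needs them, and for up to 3 members of each further list, ranked by p; Acly was added. Of the 39 tested carriers 1 counts in the summaries but is not reported here by name. Members and lists were chosen with earlier results of these data known. Nothing says that libraries come from separate animals, so the errors and p-values given refer to spread among these libraries, which may be technical. Positions are from GENCODE M21 (GRCm38, which is mm10), where all 45 members were found. Exons of 14 overlap another gene, 12 of them one on the opposite strand. Among these 12 are Slc25a10, Slc25a23, Slc25a25, Slc25a37 and Slc25a46. Reads of genes on opposite strands cannot be told apart if strand was not used. Alternatives covered pseudocount, filter, scaling, variance model, library weights, replicate number, library number and each library left out.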

Additional observations from a re-analysis of the deposited data

How the results depend on the processing

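No Slc25a carrier was called under any of the 15 alternatives, and the smallest limma adjusted p of an Slc25a carrier was 0.348, with the replicate block. Over all rows limma called 0 rows, 5 with the replicate block and between 0 and 1 when 1 library was left out. Replicate numbers of knockouts and controls share no stated origin. Deviations from the group means correlated at 0.23 for replicate number 1 and 0.20 for number 2, which with 2 controls are mirrored in the other pairings. Knockout 3 has no partner, so the block fit has the log2 fold changes obtained without knockout 3, but not its p-values. Knockout 1 and control 1 have library numbers 18669 and 18668, against 18662, 18663 and 18659 for knockout 2, knockout 3 and control 2. The term for library number uses this split, and the labels do not say what it means.

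Carriers at an unadjusted p below 0.05 numbered 0 higher and 1 lower. There was 1 higher with no filter and with no trended prior, and 2 with the replicate block (Slc25a22 and Slc25a34). There were 0 lower with quantile normalization and with no trended prior. The 1 lower carrier was not always Slc25a47. It was Slc25a2 with no filter, Slc25a37 with the replicate block and without knockout 3, and Slc25a25 without control 1. Leaving out 1 library gave 0 to 1 in each direction. Carriers whose groups did not overlap were 5 higher and 2 lower. Median-of-ratios scaling gave 3 and 4, and a filter of 5 FPKM gave 1 lower. Leaving out 1 library gave 7 to 14 higher and 3 to 10 lower, but removing a library can only add to such counts. Shares of all rows under these settings are not given, so the counts are not read as a result about carriers. The difference in carrier family summed FPKM, knockout minus control, was -170.4 with median-of-ratios scaling, and by -71.5 to -26.8 with 1 library left out. The median log2 fold change of the family lay between -0.0032 and 0.071 with 1 library left out.

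Signs of uncalled differences turned as follows, and the cause was not tested. The median log2 fold change of all rows moved too, from 0.061 to -0.0072 with median-of-ratios scaling and -0.0021 with quantile normalization. With median-of-ratios scaling the log2 fold change was -0.020 for Slc25a13, -0.019 for Slc25a14, -0.055 for Slc25a15, -0.045 for Slc25a17, -0.011 for Slc25a21, -0.049 for Slc25a23, -0.0023 for Slc25a25, -0.071 for Slc25a28, -0.024 for Slc25a38, -0.0024 for Slc25a40 and -0.049 for Mtch2. With quantile normalization it was -0.051 for Slc25a14, -0.0012 for Slc25a17, -0.062 for Slc25a21, -0.059 for Slc25a28, -0.015 for Slc25a38 and -0.042 for Slc25a40. Library weights gave 0.0052 for Slc25a26 and -0.0035 for Slc25a28. The replicate block gave -0.017 for Slc25a17 and -0.032 for Slc25a38. A term for the run of library numbers gave -0.062 for Slc25a25, 0.016 for Slc25a26 and 0.0022 for Mtch1.

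Leaving out 1 library turned further signs, with ranges of -0.16 to 0.051 (Slc25a10), -0.28 to 0.25 (Slc25a12), -0.35 to 0.41 (Slc25a14), -0.049 to 0.12 (Slc25a15), -0.012 to 0.18 (Slc25a16), -0.043 to 0.15 (Slc25a17), -0.19 to 0.042 (Slc25a20), -0.033 to 0.13 (Slc25a21), -0.059 to 0.11 (Slc25a23), -0.74 to 0.89 (Slc25a25), -0.17 to 0.15 (Slc25a26), -0.069 to 0.075 (Slc25a28), -0.15 to 0.0025 (Slc25a3), -0.32 to 0.21 (Slc25a33), -0.067 to 0.298 (Slc25a35), -0.032 to 0.16 (Slc25a38), -0.0090 to 0.22 (Slc25a39) and -0.065 to 0.15 (Slc25a40). Beside the carriers they were -0.33 to 0.0085 (Gls2), -0.11 to 0.035 (Mtch1) and -0.14 to 0.018 (Otc). Ratios of pairs ranged from -0.33 to 0.18 (Slc25a12 over Slc25a13), -0.44 to 0.17 (Slc25a16 over Slc25a42), -0.83 to 0.74 (Slc25a23 over Slc25a25), -0.76 to 0.16 (Slc25a33 over Slc25a36) and -0.16 to 0.29 (Slc25a39 over Slc25a40). The depth of the libraries is unknown, so counting error of the low carriers cannot be given.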
